A study of Mus musculus with 66 samples.

Results

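RGS proteins (regulators of G protein signalling) are GTPase-activating proteins. They bind the active, GTP-bound alpha subunit of a heterotrimeric G protein, speed up the hydrolysis of its GTP and so shorten the signal that a receptor such as a dopamine receptor starts. In the striatum, where dopamine D1 and D2 receptors act through G proteins that stimulate or inhibit adenylyl cyclase, RGS proteins set how long those signals last. The family is divided into subfamilies by sequence. R4 proteins are small and hold little besides the RGS domain, R7 proteins bind the G beta 5 subunit, R12 proteins other than the small Rgs10 carry further domains, and RZ proteins include Rgs17, which acts on Gz and other Gi-type subunits.

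The 8 RGS genes described here are Rgs2, Rgs4, Rgs8 and Rgs16 of the R4 subfamily, Rgs7 of the R7 subfamily, Rgs10 and Rgs14 of the R12 subfamily and Rgs17 of the RZ subfamily. They are the entries of the expression table that carry these symbols, 8 of 24138 genes. All 8 were listed above 0 in all 66 libraries, and all 8 passed the filter of at least 1 FPKM in at least 1 library, by values of at least 1.32 FPKM in every library. In the genome build GRCm38.p6, 5 of the 8 lie on chromosome 1: Rgs2 (chr1:143999338-144004149, XLOC_001086 in the table), Rgs8 (chr1:153652959-153697669, XLOC_000461), Rgs16 (chr1:153740353-153745468, XLOC_000462), Rgs4 (chr1:169741477-169747642, XLOC_001185) and Rgs7 (chr1:175059076-175492862, XLOC_001244). Rgs16 starts 42684 bases after the end of Rgs8. Rgs10 (chr7:128373621-128419506, XLOC_020354), Rgs17 (chr10:5825663-5922412, XLOC_001923) and Rgs14 (chr13:55369732-55384687, XLOC_005321) lie on other chromosomes.

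RNA was taken from punches of the ventral striatum, which holds the nucleus accumbens (NAcc), of C57BL/6 mice by the labels (C57BL/6J background in the reporting of the study). WT mice were compared with iMSN-D2RKO mice, which carry floxed D2R alleles and Cre under the D1R promoter and lose D2R in indirect-pathway medium spiny neurons (iMSNs) because the precursors of these neurons express both receptors. Mice received saline or 20 mg/kg cocaine intraperitoneally at zeitgeber time (ZT) 3, 3 h after lights on, and were killed at ZT7, ZT11, ZT15, ZT19 or ZT23, and the ZT3 libraries of each genotype serve as the start of both its saline and its cocaine series. That gives 22 groups of 3 libraries, 66 in all. The mice were males aged 3 to 5 months per the study's reporting. Whether each library is 1 mouse is not given in the sources used here, so p-values measure the spread between these libraries. Levels are in FPKM, fragment numbers corrected for the length of the transcript and the size of the library, so that genes can be set side by side. In tissue of several cell types, fewer cells of a type and less RNA per cell cannot be told apart.

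The summed FPKM of a library ran from 364078 to 690048 (median 396432), and relative depth, estimated from rarely detected genes, from 0.346 to 1.75. Spiny neuron markers were present throughout (Drd1 at 56.7 FPKM or more), and Drd2 did not separate the genotypes: its median was 126 FPKM in the WT saline and ZT3 libraries and 107 FPKM in those of iMSN-D2RKO mice, with overlapping ranges, a difference of -0.02 on the log2 scale (limma adjusted p = 0.978), so this level is no check of the genotype labels. A set of 13 libraries stood apart from the other 53 on the main axis of differences within groups, termed the library score, which held 43.6% of that variance. They came from both genotypes (6 WT and 7 iMSN-D2RKO) and both treatments, and 12 of the 13 from ZT15, ZT19 or ZT23. Called differences of the 8 genes that rest on them are given with and without them. The 2 libraries of the lowest relative depth were extreme as well. Replicate 1 of saline-treated iMSN-D2RKO mice at ZT7 had the highest summed FPKM and the highest Rgs10 and Rgs14, and replicate 3 of cocaine-treated WT mice at ZT15 had the lowest summed FPKM, the highest Rgs8 and the lowest Rgs4 and Rgs10.

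Rgs4 was the most abundant of the 8, and Rgs16 the least. Over 66 libraries the lowest, median and highest levels were 128, 236 and 603 FPKM for Rgs4, 28.9, 73.2 and 204 FPKM for Rgs10, and 36.5, 67.1 and 103 FPKM for Rgs14. Rgs2 ranged from 26.3 to 104 FPKM around a median of 47.4, Rgs8 from 24.3 to 92.6 around 47.1, and Rgs7 from 18.7 to 45.0 around 24.01. Rgs17 lay between 6.41 and 30.4 FPKM (median 12.4) and Rgs16 between 1.32 and 43.4 FPKM (median 3.11). The order was firm for some neighbouring pairs and loose for others. Rgs4 was above Rgs10 in 66 of 66 libraries and Rgs7 above Rgs17 in 66 of 66, but Rgs10 exceeded Rgs14 in 42 of 66 and Rgs2 exceeded Rgs8 in 28 of 66. Rgs14 was above Rgs2 in 56, Rgs8 above Rgs7 in 58 and Rgs17 above Rgs16 in 59 of 66 libraries. Variation between libraries was smallest for Rgs8 (SD 20.9% of the mean) and Rgs14 (21.2%) and by far the largest for Rgs16 (128%).

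**Figure D1:**
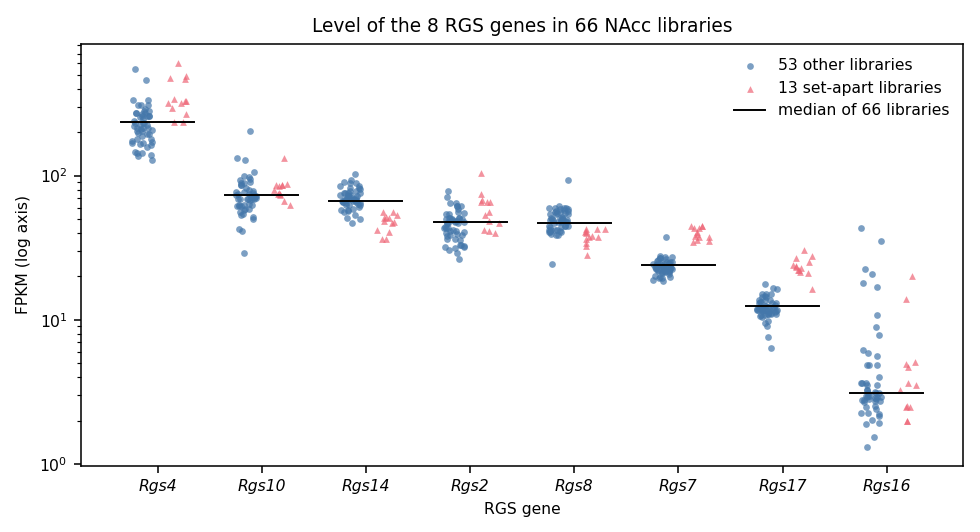
Level of the 8 RGS genes in FPKM (log axis) in each of 66 NAcc libraries, with circles for the 53 other libraries, triangles for the 13 set-apart libraries and a bar at the median of all 66. Rgs4 has the highest median (236 FPKM) and Rgs16 the lowest (3.11 FPKM), and the triangles of Rgs7 and Rgs17 lie mostly above the circles.

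Of the 8 genes, Rgs17, Rgs7 and Rgs14 had the largest correlations, in absolute value, with the library score. Rgs7 lay between 34.8 and 45.0 FPKM in the 13 set-apart libraries and between 18.7 and 37.5 FPKM in the other 53. Rgs17 lay between 16.5 and 30.4 FPKM against 6.41 to 17.6 FPKM, and Rgs14 between 36.5 and 56.3 FPKM (median 48.1) against 46.8 to 103 FPKM (median 68.6). Rgs4 was also high in many of them, with a median of 327 FPKM against 219 FPKM, whereas the medians of Rgs8 were 37.9 and 49.1 FPKM and those of Rgs2 55.7 and 46.9 FPKM. Over the 66 libraries, which share 22 groups, Pearson's r of log2(FPKM + 1) with the library score was 0.89 for Rgs17, 0.87 for Rgs7 and -0.73 for Rgs14, and over the other 53 libraries 0.51, 0.22 and -0.35. Rgs16 was unrelated to the score (r = -0.01). Part of the level of Rgs7, Rgs17 and Rgs14 moved with this property of the libraries.

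**Figure D2:**
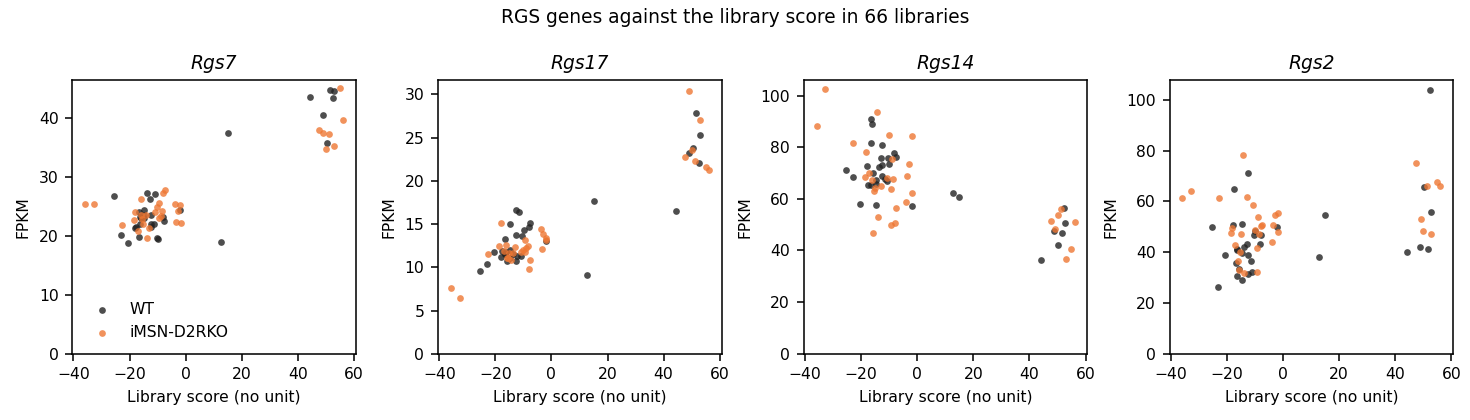
FPKM of Rgs7, Rgs17, Rgs14 and Rgs2 against the library score (no unit) in 66 libraries, coloured by genotype. The 13 set-apart libraries form the right-hand cloud at scores of 44.3 to 56.1, where Rgs7 and Rgs17 are high and Rgs14 is low in both genotypes. Rgs2 runs from 40.1 to 104 FPKM in that cloud and from 26.3 to 78.3 FPKM in the other libraries.

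The first question the design poses is whether each gene changed over the day. In WT mice given saline, 3 of the 8 RGS genes differed between the 6 time points (Rgs2, Rgs4 and Rgs7, limma F test, adjusted p below 0.05), against 13.1% of 13940 genes tested. In WT mice given cocaine, Rgs2 and Rgs7 did, 2 of 8 against 24.2% of 14268 genes. In iMSN-D2RKO mice none of the 8 passed after saline, against 0% of all genes (931 of 14135 at an unadjusted p under 0.05), and none after cocaine, against 0.00717% (2646 of 13944 at an unadjusted p under 0.05). The test of whether the 24 h rhythm differed between genotypes or between treatments called none of the 8 in any of 4 comparisons, against 0% of genes in each (198 to 789 at an unadjusted p under 0.05). Among the 8, only Rgs2 for cocaine in WT mice and Rgs17 for cocaine in iMSN-D2RKO mice had an unadjusted p under 0.05 in these tests. A time effect in WT mice and none in iMSN-D2RKO mice is therefore not shown to differ between them.

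The 250 bases before a RefSeq start of each of the 3 genes with a time effect in WT saline are given here, from GRCm38.p6 on the strand of the gene. They show which of the motifs of clock and cAMP-dependent factors these windows hold. Capitals mark TGACG or its reverse complement CGTCA, which is part of the cAMP response element, and the E-box CACGTG.

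Rgs2 (chr1:144004150-144004399, minus strand): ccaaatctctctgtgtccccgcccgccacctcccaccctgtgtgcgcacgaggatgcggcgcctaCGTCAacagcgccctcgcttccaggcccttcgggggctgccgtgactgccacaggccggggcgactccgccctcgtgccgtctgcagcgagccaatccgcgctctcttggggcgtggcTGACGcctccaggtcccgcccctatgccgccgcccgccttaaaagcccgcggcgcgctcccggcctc

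Rgs4 (chr1:169747643-169747892, minus strand): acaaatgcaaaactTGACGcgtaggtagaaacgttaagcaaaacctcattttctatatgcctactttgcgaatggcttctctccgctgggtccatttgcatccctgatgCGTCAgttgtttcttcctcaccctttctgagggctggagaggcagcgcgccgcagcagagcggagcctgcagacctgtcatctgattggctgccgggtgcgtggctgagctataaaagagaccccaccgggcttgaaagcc

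Rgs7 (chr1:175492546-175492795, minus strand): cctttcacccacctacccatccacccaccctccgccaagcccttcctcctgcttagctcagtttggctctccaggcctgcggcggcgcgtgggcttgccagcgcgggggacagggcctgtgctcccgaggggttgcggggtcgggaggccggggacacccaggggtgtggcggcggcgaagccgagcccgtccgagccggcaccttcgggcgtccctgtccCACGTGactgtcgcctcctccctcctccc

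TGACG occurred 2 times before Rgs2, at 185 and 67 bases before the start, and 2 times before Rgs4, at 236 and 141 bases. CACGTG occurred 29 bases before the start used for Rgs7. That window lies inside the span given above for Rgs7. The window of Rgs10 and the later windows of Rgs8 also lie inside their genes, and the first of Rgs8 and that of Rgs17 overlap theirs. Among 32851 promoter windows of this length, 17.8% hold TGACG or CGTCA and 6.02% hold CACGTG, so both are common. Of the 8 genes, 7 had a promoter in the table, Rgs14 being the exception. The other promoters held TGACG in 1 of the 3 windows of Rgs8, the ROR element core AGGTCA in another (14.0% of windows) and the AP-1 site TGAGTCA before Rgs17 (4.46%), both strands being searched. No window of the 8 genes held the full cAMP response element TGACGTCA, found in 1.55% of windows, or the D-box TTATGTAA, found in 0.819%.

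Rgs2, an R4 protein that acts mainly on Gq-type alpha subunits and whose transcript is known as rapidly inducible, was highest at ZT3 in WT mice given saline. At ZT3 the 3 WT libraries held 71.1, 51.2 and 64.7 FPKM. After saline they held 38.97, 26.3 and 29.1 FPKM at ZT7, 43.3, 40.8 and 36.4 at ZT11, 46.8, 48.3 and 46.9 at ZT15, 40.1, 42.2 and 42.2 at ZT19, and 41.1, 32.3 and 43.2 at ZT23. All 3 ZT3 libraries lay above all 15 later ones, and the mean was 62.3 ± 10.2 FPKM at ZT3 and 31.5 ± 6.64 FPKM at ZT7 (SD, n = 3). The time effect had F = 9.62 (limma adjusted p = 0.0187), stayed below 0.05 without any 1 of the 18 libraries (0.00434 to 0.0468) and was at 0.0240 without the set-apart libraries, but was lost when all libraries of any 1 replicate number were left out (0.0788 to 0.729). The ZT3 libraries of WT mice also stood out in other genes. The summed level of choroid plexus markers was 64.2 to 115 FPKM in them and at most 9.38 FPKM in the 15 later saline libraries, and that of 16 early-response genes 615 to 1490 FPKM against 267 to 459 FPKM. The part of either in the level of Rgs2 was not tested.

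In WT mice given cocaine the highest group mean of Rgs2 was at ZT19 (71.4 ± 28.1 FPKM, SD, n = 3), beside 41.5 ± 1.20 FPKM after saline. After cocaine the WT libraries held 41.2, 35.6 and 30.6 FPKM at ZT7, 33.3, 31.5 and 39.5 at ZT11, 50.9, 38.8 and 38.1 at ZT15, 55.7, 54.7 and 104 at ZT19, and 49.8, 50.05 and 65.7 at ZT23. At ZT19 and at ZT23 all 3 cocaine libraries lay above all 3 saline libraries. The differences were 0.70 on the log2 scale at ZT19 (SE 0.21, 95% CI 0.28 to 1.12, limma adjusted p = 0.688) and 0.49 at ZT23 (adjusted p = 1), against 0.0205% and 0% of 14643 genes called. At ZT19, replicates 1 and 3 of the cocaine group and replicates 1 and 2 of the saline group were set-apart libraries, and the 104 FPKM belongs to one of them. Over all genes, separations of 3 against 3 libraries were not counted, so those given here and below are descriptions only.

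Within the cocaine series of WT mice, the time effect of Rgs2 was called (F = 6.49, adjusted p = 0.0154) and stayed so without any 1 library (0.0116 to 0.0371). It was not called with the library score in the model (0.104) or without all libraries of replicate 1 (0.267) or replicate 2 (0.0915). Leaving out the set-apart libraries leaves replicate 2 as the only library of ZT19 in that series. Rgs2 was also the only one of the 8 genes called rhythmic by JTK_CYCLE, a rank test against cosine curves, with an exact p of 0.00156 and a best period of 20 h, against 7.61% of genes in that series. That call held without any 1 library (0.000542 to 0.00667), but not with a 24 h period alone (exact p = 0.0438), without ZT3 (0.0266), with equal cosine values kept tied (0.0251) or when replicate 1 or replicate 2 of all time points was left out (0.0286 each). No gene of the 8 was called by JTK_CYCLE in WT saline (9.81% of genes), iMSN-D2RKO saline (2.58%) or iMSN-D2RKO cocaine (1.1%). The test of a different 24 h rhythm after cocaine gave Rgs2 the smallest p of the 8 (F = 6.15, unadjusted p = 0.00618, adjusted p = 0.99996). Averaged over time of day, Rgs2 was 0.34 higher in the dark than in the light phase of WT mice given cocaine (SE 0.12, adjusted p = 0.0492, 13.7% of genes called), a value at the edge of the threshold that was lost without 38 of the 66 libraries when each was left out in turn (up to 0.151) and that was 0.20 (adjusted p = 0.339) without the set-apart libraries. In WT saline the same difference was -0.01 (adjusted p = 0.9752, 2.75% called).

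In iMSN-D2RKO mice Rgs2 lay mostly higher than in WT mice, most clearly at ZT7. The ZT3 libraries held 49.4, 32.99 and 61.4 FPKM. After saline the libraries held 64.2, 40.1 and 50.7 FPKM at ZT7, 32.1, 43.04 and 47.02 at ZT11, 44.1, 48.5 and 47.1 at ZT15, 67.6, 47.7 and 52.996 at ZT19, and 54.6, 61.5 and 47.2 at ZT23. At ZT7, ZT19 and ZT23 all 3 lay above all 3 WT saline libraries. After cocaine they held 55.5, 75.2 and 48.7 FPKM at ZT7, 41.5, 36.6 and 31.9 at ZT11, 78.3, 47.9 and 66.03 at ZT15, 61.8, 58.6 and 50.3 at ZT19, and 66.1, 53.9 and 50.5 at ZT23. Again the groups did not overlap at ZT7, while at ZT19 and ZT23 they did.

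The genotype difference of Rgs2 at ZT7 was 0.69 after saline (SE 0.21, 95% CI 0.27 to 1.11, limma adjusted p = 0.0531, 3.07% of genes called) and 0.71 after cocaine (SE 0.21, adjusted p = 0.483, 0% called), neither below the threshold. After saline the adjusted p was 0.0230 when the set-apart libraries were left out and 0.0177 in the model that holds the library score, but 0.976 without replicate 1 of iMSN-D2RKO mice at ZT7, the library of the highest summed FPKM, where the difference was 0.52. Over all time points Rgs2 was 0.19 higher in iMSN-D2RKO mice after saline (95% CI -0.01 to 0.39, adjusted p = 0.510) and 0.23 higher after cocaine (95% CI -0.01 to 0.46, adjusted p = 0.9996).

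Early-response genes, the transcription factors and effectors that neuronal activity induces within minutes, give a frame for Rgs2. Of 16 such genes, 12 had a time effect in WT saline (Nr4a1 adjusted p = 0.00279, Egr1 0.00318, Fosl2 0.00599) and 11 in WT cocaine (Nr4a1 0.00219, Arc 0.00262, Fosl2 0.00389), against 13.1% and 24.2% of all genes. That test called none of the 16 in either series of iMSN-D2RKO mice, where it called 0% and 0.00717% of all genes. In iMSN-D2RKO mice given cocaine JTK_CYCLE called 4 of the 16, against 1.1% of genes (Fosl2 exact p = 0.00255, Nr4a1 0.00371, Nr4a3 0.00533), and 6 were higher in the dark than in the light, against 0.942% (Egr2 1.26, Nr4a3 1.07 and Nr4a1 0.79 on the log2 scale, limma adjusted p = 0.0115, 0.0153 and 0.0153). JTK_CYCLE also called Jun, Npas4 and Fos in WT cocaine (7.61% of genes) and Egr3 in WT saline (9.81%). In WT cocaine most of those called in the dark against light comparison were higher, led by Nr4a1 (0.93), Jun (0.43) and Egr1 (0.79), against 13.7%. Nr4a3 and Jun were higher in the dark in iMSN-D2RKO saline (27.3%), and Egr4 lower in WT saline (2.75%). Rgs2 had r = 0.58 with the mean log2(FPKM + 1) of the 16 genes over 66 libraries. The value over the 53 that did not stand apart was 0.64, and both were the highest of the 8 genes. The genes most like Rgs2 over 66 libraries among 9584 were Hbegf (r = 0.79), P4ha1 (0.78) and Rab3ip (0.77), with 0.79, 0.73 and 0.73 over the 53. At ZT19 after cocaine 3 of the 16 were called between genotypes, against 11.9% of all genes. All 3 were higher in iMSN-D2RKO mice (Fosl2 1.47, Egr4 1.47 and Fosb 1.20 on the log2 scale). The difference of Rgs2 there was -0.26 (95% CI -0.68 to 0.16). In that comparison 2 of 3 WT libraries and no iMSN-D2RKO library were set apart. Without the set-apart libraries, which leaves replicate 2 as the only WT library of that group, the 3 differences were 1.88, 1.51 and 1.43. With the library score in the model none was called (1.26, 0.62 and 0.94, adjusted p = 0.335, 0.407 and 0.335). At ZT7 after saline Nr4a1 was called higher in iMSN-D2RKO mice (1.47, limma adjusted p = 0.0144, 3.07% of genes called). The mean of Rgs2 there was 51.7 FPKM against 31.5 FPKM in WT mice. At ZT3 Egr2 was called lower in iMSN-D2RKO mice (-2.49, adjusted p = 0.00843, 0.041%), and the mean of Rgs2 was 47.9 FPKM against 62.3 FPKM. The libraries behind the correlations share groups, depth and library score, and no test was made of them. Clock genes, the transcription factors and repressors of the circadian oscillator, had a time effect in 6 of 16 in WT saline (Per2 adjusted p = 0.00798, Per1 0.00811, Per3 0.0168) and 8 of 16 in WT cocaine (Nr1d1 0.00159, Dbp 0.00305, Per3 0.0128), against the same 13.1% and 24.2% of all genes, and in none in either series of iMSN-D2RKO mice. JTK_CYCLE called 6 of the 16 in WT saline, 4 in WT cocaine, 3 in iMSN-D2RKO saline (Ciart, Per2 and Per3) and 2 in iMSN-D2RKO cocaine (Ciart and Per3). Dark against light called 8 in iMSN-D2RKO saline (5 higher and 3 lower, 27.3% of genes called) and 2 in WT saline (both lower, 2.75%). After cocaine it called clock genes in both genotypes. Among them were Arntl (0.53), Nr1d1 (-0.38) and Per2 (0.55) in WT mice (13.7% of genes), and Nr1d1 (-0.52) and Cry1 (0.37) in iMSN-D2RKO mice (0.942%).

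**Figure D3:**
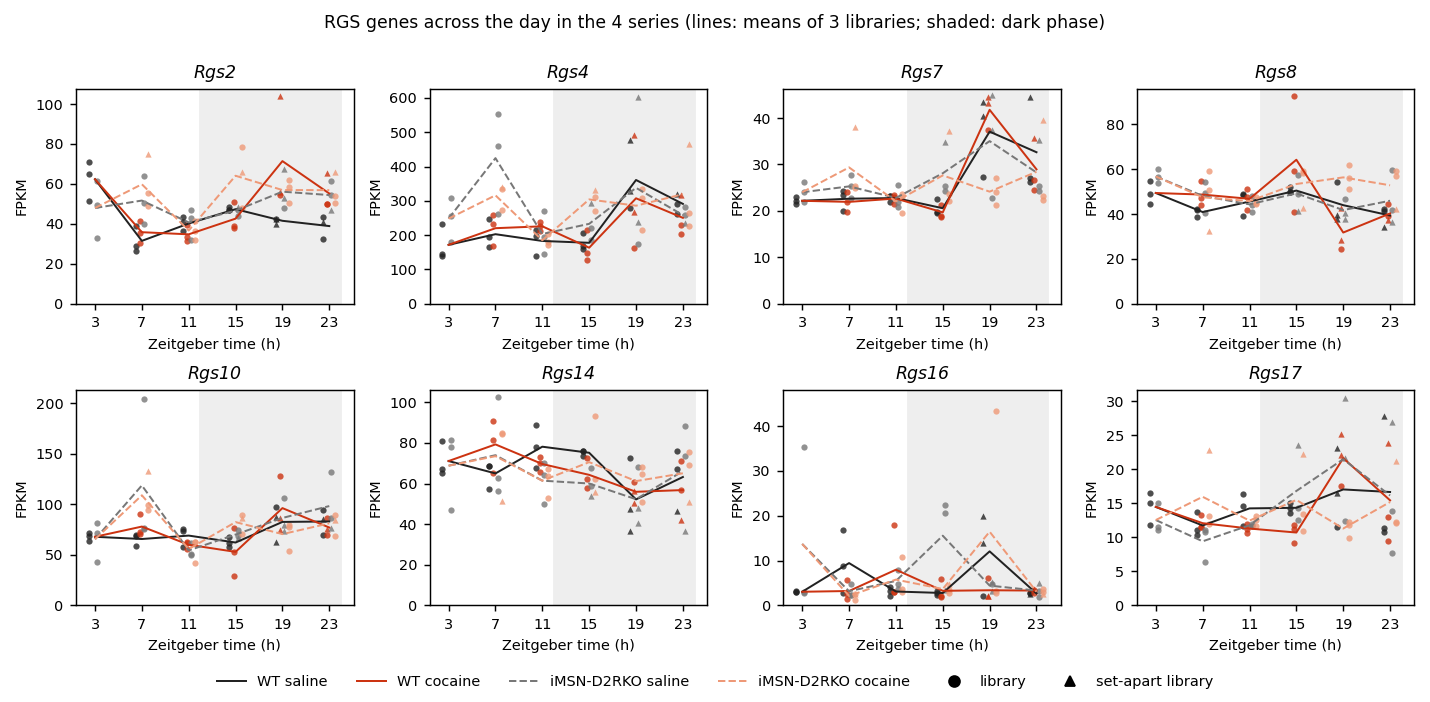
FPKM of the 8 RGS genes by zeitgeber time (h) in WT (solid) and iMSN-D2RKO (dashed) mice after saline or cocaine, with lines through the means of 3 libraries, circles for libraries, triangles for set-apart libraries and the dark phase shaded. The ZT3 libraries start both series of a genotype. Rgs2 of WT mice has a mean of 62.3 FPKM at ZT3 and 31.5 FPKM at ZT7 after saline, and the high points of Rgs7 and Rgs17 at ZT15 to ZT23 are largely triangles.

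Rgs4, the most abundant of the 8, is an R4 protein enriched in brain that acts on Gi- and Gq-type subunits. In WT mice given saline it was higher at ZT19 and ZT23 than earlier in the day. The libraries held 144, 140.03 and 231 FPKM at ZT3, 194, 167 and 247 at ZT7, 197, 214 and 138 at ZT11, 206, 158 and 169 at ZT15, 476, 327 and 279 at ZT19, and 320.4, 292 and 261 at ZT23. All 6 libraries of ZT19 and ZT23 lay above all 12 earlier ones. The time effect had F = 7.05 (limma adjusted p = 0.0288). Of the 6 late libraries, 3 were set-apart ones (476, 327 and 320.4 FPKM), and without the set-apart libraries the adjusted p was 0.132. The call was also lost when replicate 1 or 2 of ZT3, replicate 2 or 3 of ZT15 or replicate 1 or 2 of ZT19 was left out (up to 0.0808), and held without each of the other 12 (from 0.00611).

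After cocaine, Rgs4 of WT mice showed no called time effect (adjusted p = 0.317). Its libraries held 169.7, 257 and 234 FPKM at ZT7, 212, 239.5 and 226 at ZT11, 214, 147 and 128 at ZT15, 268, 163 and 491 at ZT19, and 230.4, 203 and 318 at ZT23. The widest spread was at ZT19, where the 2 set-apart libraries held 268 and 491 FPKM. The cocaine minus saline difference there was -0.34 on the log2 scale (SE 0.33, adjusted p = 0.951).

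In iMSN-D2RKO mice, Rgs4 was high at ZT7. The ZT3 libraries held 179.6, 309 and 256 FPKM. The libraries held 553, 261 and 459.9 FPKM at ZT7 after saline and 336, 339 and 273 FPKM after cocaine, each group above all WT libraries of the same time and treatment. The genotype difference after saline was 1.01 on the log2 scale (SE 0.33, 95% CI 0.35 to 1.68, adjusted p = 0.0712) and after cocaine 0.53 (SE 0.33, adjusted p = 0.558). After saline the call was reached when the set-apart libraries were left out (adjusted p = 0.0141), as it was when the library score was fitted (0.0169). Without replicate 1 of that group, which held 553 FPKM, the difference was 0.79 and the adjusted p 0.992. At ZT15 after cocaine Rgs4 held 270.1, 310.4 and 332 FPKM in iMSN-D2RKO mice against 214, 147 and 128 in WT mice, a difference of 0.92 (adjusted p = 0.0851, 4.4% of genes called), and the 128 FPKM belongs to the shallowest library. After saline the other groups of iMSN-D2RKO mice held 271, 144 and 194 FPKM at ZT11, 187, 292 and 219 at ZT15, 603, 173 and 237 at ZT19, and 281, 259 and 235 at ZT23. After cocaine they held 215, 309 and 334 FPKM at ZT19 and 466, 266 and 226 at ZT23. Those overlapped with the WT groups, and the 603 and 466 FPKM belong to set-apart libraries. At ZT11 after cocaine the groups lay the other way and apart, with 181, 204 and 170.4 FPKM in iMSN-D2RKO mice below 212 to 239.5 FPKM in WT mice. Over all time points the genotype difference was 0.27 after saline (95% CI -0.03 to 0.57) and 0.30 after cocaine (95% CI -0.01 to 0.60), neither called. The genes most like Rgs4 were Pcp4 (r = 0.86 over 66 and 0.87 over 53 libraries), Nptn (0.84 and 0.78) and Chmp3 (0.83 and 0.79).

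Rgs8, an R4 protein of neurons that acts on Gi-type subunits, gave the clearest genotype difference, at ZT19 after cocaine. The 3 WT libraries held 28.2, 24.3 and 42.8 FPKM there, and the 3 iMSN-D2RKO libraries 56.2, 51.2 and 61.7 FPKM. The groups did not overlap, and the WT group held the lowest Rgs8 values of all 66 libraries (24.3 and 28.2 FPKM). The difference was 0.84 on the log2 scale (SE 0.20, 95% CI 0.44 to 1.25, limma adjusted p = 0.0441), where Rgs7 was also called, lower in iMSN-D2RKO mice, so that 2 of the 8 passed against 11.9% of 14643 genes. After saline at ZT19 the WT libraries held 39.7, 37.7 and 54.5 FPKM and the iMSN-D2RKO libraries 40.5, 46.9 and 37.9 FPKM, a difference of -0.06 (95% CI -0.46 to 0.35).

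The library score moved with this comparison. Replicates 1 and 3 of the WT cocaine group at ZT19 were set-apart libraries and replicate 2 had the highest score of the rest (15.1), while none of the iMSN-D2RKO cocaine libraries at ZT19 was set apart. Without the set-apart libraries the difference was larger, 1.18 (adjusted p = 0.000468), and then rested on 1 WT library of 24.3 FPKM. With the library score in the model it was 0.66 and no longer called (adjusted p = 0.335). It was also lost when replicate 1 of the WT group or any of the 3 iMSN-D2RKO libraries was left out (adjusted p up to 0.115, difference 0.68 to 1.07 over all 66 omissions). The difference between genotypes in the effect of cocaine at ZT19 was 0.90 (95% CI 0.33 to 1.48, unadjusted p = 0.00269, adjusted p = 0.239, 0% of genes called).

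Group means of Rgs8 ran from 31.8 ± 9.77 FPKM in that WT cocaine group to 64.2 ± 26.2 FPKM in WT cocaine at ZT15 (SD, n = 3). Cocaine minus saline at ZT19 was -0.48 in WT mice (95% CI -0.88 to -0.07, adjusted p = 0.939) and 0.42 in iMSN-D2RKO mice (95% CI 0.02 to 0.83, adjusted p = 0.304), the latter with all 3 cocaine libraries above all 3 saline ones. Without the set-apart libraries the WT value was -1.13 (adjusted p = 0.00835), from 1 library of each treatment. The highest Rgs8 level, 92.6 FPKM, was in the shallowest library, replicate 3 of WT cocaine at ZT15, whose fellows held 59.2 and 40.95 FPKM. Time effects of Rgs8 were not called (adjusted p = 0.206 in WT saline and 0.0823 in WT cocaine). The genes most like it were Atp8b2 (r = 0.86 over 66 and 0.81 over 53 libraries), Ppp1r16b (0.85 and 0.79) and Shank3 (0.84 and 0.82).

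Rgs16, the neighbour of Rgs8 on chromosome 1 and an R4 protein acting on Gi- and Gq-type subunits, was low in most libraries and high in a few that did not follow the groups. It exceeded 10 FPKM in 9 libraries, with 10.8 to 43.4 FPKM, and lay between 1.32 and 8.85 FPKM in the other 57. The highest value, 43.4 FPKM, was in replicate 3 of iMSN-D2RKO cocaine at ZT19, whose fellows held 3.14 and 2.82 FPKM. The next, 35.4 FPKM, was in replicate 2 of iMSN-D2RKO mice at ZT3, beside 2.86 and 2.93 FPKM. The others were replicates 1 and 3 of iMSN-D2RKO saline at ZT15 (22.4 and 20.7 FPKM), replicates 1 and 2 of WT saline at ZT19 (20.1 and 13.97 FPKM), replicate 1 of WT cocaine at ZT11 (17.98 FPKM), replicate 3 of WT saline at ZT7 (16.8 FPKM) and replicate 3 of iMSN-D2RKO cocaine at ZT11 (10.8 FPKM). Both genotypes and both treatments were among them, and each of their groups held at least 1 library of low Rgs16.

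The same 9 libraries had the 9 highest sums of 4 markers of thalamic or septal neurons, Slc17a6 (a vesicular glutamate transporter), Tcf7l2, Prkcd and Zic1. That sum ran from 105 to 338 FPKM in the 9 and from 6.93 to 56.6 FPKM in the other 57, and each of the 4 markers was above 0 in every library. Prkcd, a protein kinase C isoform abundant in thalamus, lay between 60.8 and 264 FPKM against 2.07 to 36.3 FPKM. Over 66 libraries Rgs16 had r = 0.94 with the mean log2(FPKM + 1) of the 4 markers, and 0.96 over the 53 that did not stand apart. The genes most like Rgs16 were Prkcd (0.96 and 0.95), Inadl (0.94 and 0.96) and Lhfp (0.92 and 0.92). No comparison called Rgs16. Its genotype difference after saline, averaged over the day, was 0.27 with a 95% CI of -0.37 to 0.91, and the part of these markers in it was not tested.

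**Figure D4:**
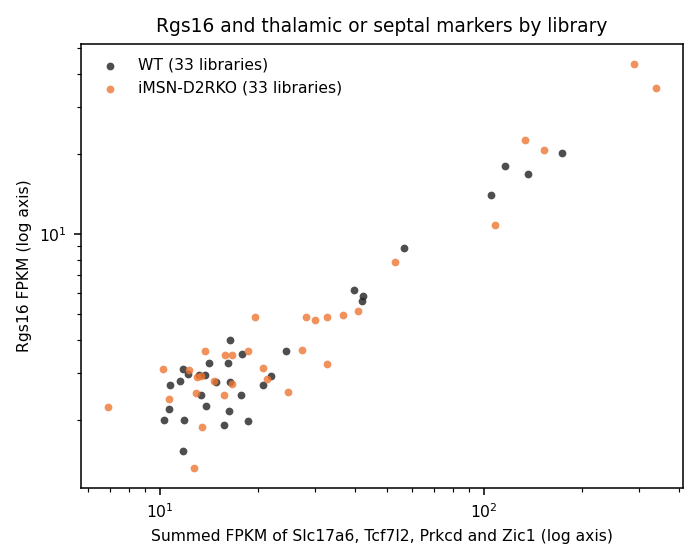
Rgs16 FPKM against the summed FPKM of Slc17a6, Tcf7l2, Prkcd and Zic1 (both axes log) in 33 WT and 33 iMSN-D2RKO libraries. The 9 libraries above 10 FPKM of Rgs16 are the 9 with a marker sum of 105 FPKM or more, and both genotypes are among them.

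Rgs7, which pairs with the G beta 5 subunit Gnb5 and, through the anchor Rgs7bp or the receptor Gpr158, sits at the membrane, had called time effects in both WT series. In WT saline the libraries held 22.1, 22.9 and 21.5 FPKM at ZT3, 23.5, 20.1 and 24.3 at ZT7, 23.2, 23.2 and 21.9 at ZT11, 22.5, 19.5 and 19.7 at ZT15, 43.5, 40.5 and 27.3 at ZT19, and 44.6, 27.1 and 26.2 at ZT23. All 6 libraries of ZT19 and ZT23 lay above the 12 earlier ones, and the 3 at 40.5 FPKM or more were the set-apart libraries. The time effect (F = 6.19, adjusted p = 0.0357) was lost without them (0.0609) and was kept with the library score in the model (0.0163). It held in 6 of 18 omissions and was lost without any ZT3 or ZT11 library, replicate 1 or 2 of ZT7, replicate 2 or 3 of ZT15 or replicate 1 or 2 of ZT19 (up to 0.108).

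After cocaine the high values of Rgs7 at ZT19 in WT mice included a library that was not set apart. The libraries held 19.8, 24.05 and 21.9 FPKM at ZT7, 23.01, 21.5 and 23.5 at ZT11, 21.3, 18.7 and 18.98 at ZT15, 44.5, 37.5 and 43.3 at ZT19, and 24.5, 26.7 and 35.7 at ZT23. Replicate 2 of ZT19, at 37.5 FPKM, is the library with the highest score among the 53. The time effect (F = 15.6, adjusted p = 0.00153) held without any 1 library (5.69e-05 to 0.0110) and was not called with the library score in the model (0.0709). Leaving out the set-apart libraries leaves replicate 2 as the only library of ZT19 in that series. Dark minus light was 0.35 (SE 0.12, adjusted p = 0.0432), and 0.25 without the set-apart libraries. This call was lost without 13 of the 66 libraries left out in turn (up to 0.143), all of them from the WT ZT3 and cocaine groups.

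At ZT19 after cocaine Rgs7 was lower in iMSN-D2RKO mice, with 21.3, 24.01 and 27.2 FPKM, than in WT mice. The difference was -0.77 on the log2 scale (SE 0.21, 95% CI -1.19 to -0.35, adjusted p = 0.0441), and -0.62 without the set-apart libraries (adjusted p = 0.00121, 1 WT library). It was -0.31 and not called with the library score in the model (adjusted p = 0.335), and was lost without replicate 1 or 3 of the WT group or any of the 3 iMSN-D2RKO libraries (up to 0.115). In iMSN-D2RKO mice given saline at ZT19 the values were 45.04, 22.7 and 37.4 FPKM, of which the high ones were set-apart libraries, and the genotype difference was -0.11 (95% CI -0.52 to 0.31). Over the 33 iMSN-D2RKO libraries, the 7 set-apart ones held 34.8 to 45.04 FPKM and no other more than 27.7 FPKM. The genes most like Rgs7 were the entry printed as 7-Sep in the table (r = 0.95 over 66 and 0.80 over 53 libraries), Uba3 (0.95 and 0.82) and Mtmr7 (0.95 and 0.79).

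Of the 5 listed RGS partners, Gnb5 being counted with the beta subunits, 4 passed the filter. Rgs7bp (median 75.2 FPKM) had a time effect in WT saline (adjusted p = 0.0360), and Gpr158 (median 44.5 FPKM) was called rhythmic there by JTK_CYCLE (exact p = 0.00339). Gnb5 was abundant, with a median of 131 FPKM, well above Rgs7 at 24.01 FPKM, and was called in the dark against light comparison of iMSN-D2RKO saline (-0.41, adjusted p = 0.0487), but not without the set-apart libraries (-0.06, adjusted p = 0.882). Rgs9bp was under 1 FPKM in all 66 libraries.

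Rgs17 followed the set-apart libraries more closely than any other of the 8. In iMSN-D2RKO mice given saline it held 15.1, 11.02 and 11.5 FPKM at ZT3, 6.41, 11.04 and 10.8 at ZT7, 11.7, 11.9 and 11.7 at ZT11, 14.4, 23.6 and 12.5 at ZT15, 21.6, 12.5 and 30.4 at ZT19, and 13.8, 7.67 and 27.03 at ZT23. The 4 values above 20 FPKM were those of the 4 set-apart libraries. Dark minus light was 0.56 on the log2 scale (SE 0.19, 95% CI 0.18 to 0.94, limma adjusted p = 0.0272), 1 of 8 against 27.3% of genes in that comparison. Without the set-apart libraries it was 0.11 (adjusted p = 0.806) and with the score in the model 0.08 (0.741). It was also lost without replicate 2 of ZT15, replicate 1 or 3 of ZT19, replicate 3 of ZT23, all set apart, or replicate 1 of ZT7, which held 6.41 FPKM (up to 0.129).

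In WT mice Rgs17 held 25.3, 17.6 and 22.1 FPKM at ZT19 after cocaine, of which the first and last were set-apart libraries, against 12.3, 11.8 and 9.85 FPKM in iMSN-D2RKO mice. The groups did not overlap, and the difference of -0.87 (SE 0.32, 95% CI -1.52 to -0.22) missed the threshold (adjusted p = 0.0581). With the library score in the model it was -0.12 (adjusted p = 0.704). The genes most like Rgs17 were Tmx4 (r = 0.97 over 66 and 0.89 over 53 libraries), Pak3 (0.96 and 0.88) and B230209E15Rik (0.95 and 0.82). Rgs17 and Rgs7 were related over 66 libraries (r = 0.74) but not over the 53 (-0.01).

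The R12 genes Rgs10 and Rgs14 were not called in any comparison of the main tests, apart from the alternatives of the closing section. Rgs10, a small RGS protein found in neurons and abundant in microglia, held 204, 75.1 and 76.8 FPKM in iMSN-D2RKO saline at ZT7 against 68.96, 58.6 and 69.4 FPKM in WT mice. The difference was 0.68 (95% CI 0.14 to 1.22, adjusted p = 0.132), and the 204 FPKM is that of the library with the highest summed FPKM. At ZT7 after cocaine Rgs10 held 99.7, 133 and 94.2 FPKM in iMSN-D2RKO mice and 72.9, 90.2 and 70.7 in WT mice, which did not overlap either (0.47, 95% CI -0.07 to 1.01, adjusted p = 0.543). At ZT15 after cocaine the values were 89.4, 70.9 and 86.7 FPKM against 76.6, 53.3 and 28.9 FPKM (0.73, adjusted p = 0.0980), the last from the shallowest library. That difference was called with the library score in the model (0.81, limma adjusted p = 0.0260) and without the library of the highest summed FPKM (0.73, adjusted p = 0.0431), and was 0.69 (adjusted p = 0.200) without the set-apart libraries. In iMSN-D2RKO saline JTK_CYCLE called Rgs10 when ZT3 was left out (exact p = 0.00108, beside 0.0410 with it). Ccdc53 (r = 0.86 over both sets of libraries), Crabp1 (0.85 over 66 and 0.92 over 53) and Cct3 (0.85 and 0.87) were most like Rgs10.

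Rgs14, a scaffold that carries an RGS domain, Ras-binding domains and a GoLoco motif for inactive Gi subunits, had group means between 52.2 ± 18.4 FPKM (WT saline at ZT19) and 79.3 ± 12.95 FPKM (WT cocaine at ZT7, SD, n = 3). In WT cocaine it held 80.7, 67.2 and 65.3 FPKM at ZT3, 81.6, 90.9 and 65.3 at ZT7, 69.98, 73.04 and 65.8 at ZT11, 72.6, 57.98 and 62.3 at ZT15, 50.6, 60.9 and 56.3 at ZT19, and 57.05, 71.1 and 42.2 at ZT23. The lowest 3 of these, 42.2, 50.6 and 56.3 FPKM, were those of its 3 set-apart libraries. Its JTK_CYCLE p in that series was 0.0106 (exact), just above the threshold of 0.01, and dark minus light was -0.32 (95% CI -0.61 to -0.02, limma adjusted p = 0.123). The genes most like it were Igfbp4 (r = 0.90 over 66 and 0.81 over 53 libraries), Arpc1a (0.87 and 0.76) and Adra2c, an alpha-2 adrenergic receptor that couples to Gi (0.87 and 0.78). Rgs14 had r = 0.54 over 66 and 0.75 over 53 libraries with the mean log2(FPKM + 1) of the spiny neuron markers. With that of the thalamic or septal ones it had -0.58 and -0.67.

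Averaged over the day, neither genotype nor cocaine gave a called difference for any of the 8 genes (limma), and none had an unadjusted p under 0.05 in these 5 comparisons. The genotype comparison called 0 of 8 after saline (0.189% of 14287 genes) and 0 of 8 after cocaine (0.0487% of 14382). The comparison of cocaine with saline over ZT7 to ZT23 called 0 of 8 in WT mice (0% of 14392 genes, with 365 at an unadjusted p under 0.05) and 0 of 8 in iMSN-D2RKO mice (0% of 14238, with 425). The intervals bound what could have been missed: for Rgs8 the genotype difference after saline was 0.08 (95% CI -0.05 to 0.21) and for Rgs7 0.07 (95% CI -0.11 to 0.24), whereas that of Rgs4 reached up to 0.57. The effect of cocaine lay between -0.17 and 0.14 for Rgs7 of WT mice and between -0.01 and 0.42 for Rgs2. The difference between genotypes in the effect of cocaine called 0 of 8 (0% of 14622 genes, with 245 at an unadjusted p under 0.05).

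At single time points, the contrasts between genotypes after cocaine made 2 of 40 possible calls among the 8 genes, both at ZT19, and 8 of the 40 had an unadjusted p under 0.05, as did 14.6% of all gene tests in the same 5 contrasts. All genes were called at 0% at ZT7 and ZT11, 4.4% at ZT15, 11.9% at ZT19 and 0.0137% at ZT23. After saline none of 48 was called, with 6 at an unadjusted p under 0.05 (5.63% of all gene tests), beside 0.041% of genes at ZT3, 3.07% at ZT7, 0.0205% at ZT19 and 0% at the other 3 times. Cocaine minus saline called none of 40 in WT mice, with 3 at an unadjusted p under 0.05 (3.09% of all gene tests), beside 0.00683% at ZT7, 0.00683% at ZT15, 0.0205% at ZT19 and 0% at ZT11 and ZT23. It called none of 40 in iMSN-D2RKO mice, with 6 at an unadjusted p under 0.05 (8.48% of all gene tests), beside 0.0137% at ZT7 and 0% at the other 4 times. For the difference between genotypes in the effect of cocaine, 5 of the 8 genes had an unadjusted p under 0.05 at ZT19 (Rgs2 -0.67, Rgs7 -0.66, Rgs8 0.90, Rgs16 2.05 and Rgs17 -1.16), as did 2959 of 14643 genes, and none was called at any time (0.0137% at ZT7 and 0% at the others). At ZT19, 2 of 3 libraries were set apart in WT saline, in WT cocaine and in iMSN-D2RKO saline, but none in iMSN-D2RKO cocaine. The Rgs16 value includes the iMSN-D2RKO cocaine library of 43.4 FPKM and the WT saline libraries of 20.1 and 13.97 FPKM, all with high thalamic or septal marker sums. The 2 comparisons of dark with light not yet given called none of the 8, in WT saline (2.75%, with Rgs4 at 0.53 and adjusted p = 0.0873) and in iMSN-D2RKO cocaine (0.942%, with Rgs2 at 0.33 and adjusted p = 0.224).

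**Figure D5:**
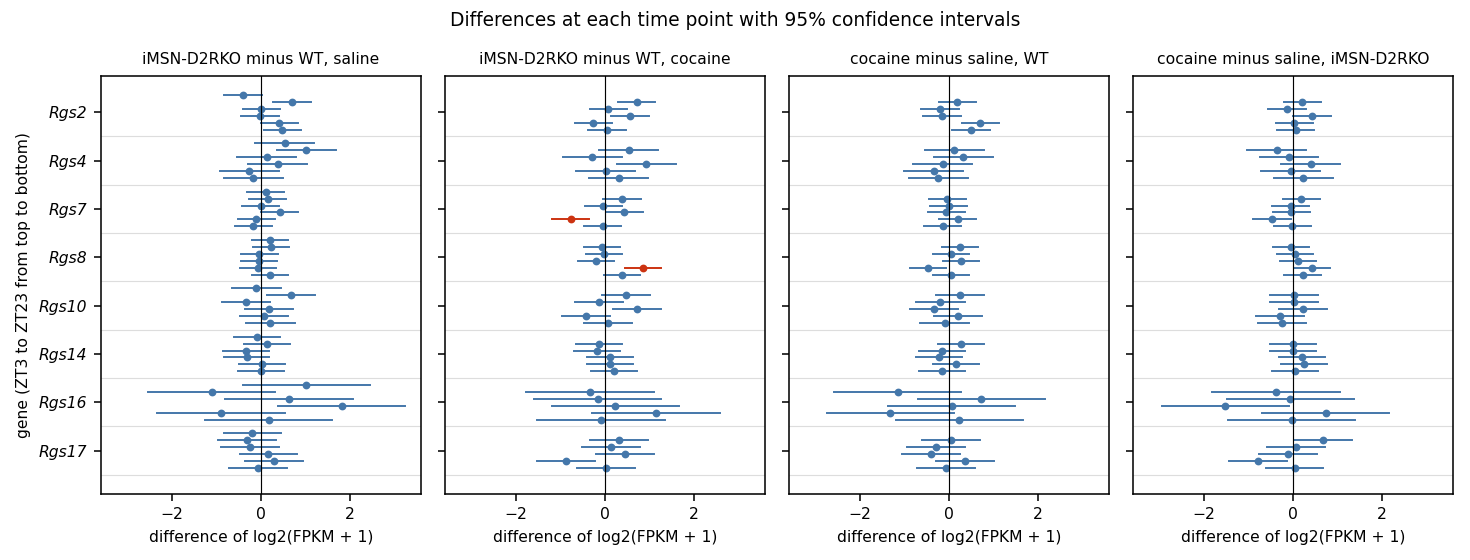
Differences of log2(FPKM + 1) at each time point with 95% confidence intervals, for iMSN-D2RKO minus WT after saline and after cocaine and for cocaine minus saline in each genotype, with ZT3 to ZT23 from top to bottom within each gene. Red marks the 2 differences with a limma adjusted p below 0.05, Rgs8 (0.84) and Rgs7 (-0.77) at ZT19 after cocaine, and the intervals of Rgs16 are the widest.

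The rest of the RGS family and the G proteins they act on were described from fixed lists. Of the 13 other RGS genes, Rgs9, the striatal R7 protein that also pairs with Gnb5, was by far the highest with a median of 209 FPKM, close to Rgs4. It was followed by Rgs20 (36.8 FPKM), Rgs5 (24.2), Rgs12 (18.8), Rgs11 (12.7), Rgs19 (9.89), Rgs6 (8.26) and Rgs3 (3.15), while Rgs1, Rgs13, Rgs18 and Rgs21 were under 1 FPKM in all 66 libraries and Rgs22 reached it in 2. None of them had a called time effect in any of the 4 series. Rgs9 was higher in iMSN-D2RKO mice at ZT7 after saline (0.94, adjusted p = 0.0481), a group whose replicate 1 held the highest Rgs9 of all libraries, 669 FPKM, and without that library the difference was 0.51 and not called. Rgs11 was lower in iMSN-D2RKO mice at ZT15 after cocaine (-0.92, adjusted p = 0.0413) and in the dark phase of iMSN-D2RKO saline (-0.49, adjusted p = 0.0239), and neither was called without the set-apart libraries (-0.80, adjusted p = 0.101, and -0.32, adjusted p = 0.526). Their median difference between genotypes was -0.00 after saline and 0.04 after cocaine, beside 0.01 and 0.01 over all genes.

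Of 13 alpha subunit genes, 12 passed the filter, led by Gnas (median 668 FPKM, the subunit that stimulates adenylyl cyclase), Gnao1 (285 FPKM) and Gnal (165 FPKM, the striatal relative of Gnas). Time effects were called for Gna13 (adjusted p = 0.0192) and Gna12 (0.0429) in WT saline and for 4 in WT cocaine, among them Gna13 (0.00197), Gnai1 (0.00687) and Gna11 (0.0211), against 13.1% and 24.2% of all genes. Gnai1, an inhibitory subunit of the kind that Rgs4 and Rgs8 act on, was lower in iMSN-D2RKO mice at ZT19 after cocaine (-0.84, adjusted p = 0.0444). The difference was -0.72 without the set-apart libraries, which leaves replicate 2 as the only WT library of that group. With the library score in the model it was -0.30 and not called (adjusted p = 0.404). Gna12 was lower in iMSN-D2RKO mice at ZT7 after saline (-0.99, adjusted p = 0.0195), but was not called without replicate 1 of that group, the library of the highest summed FPKM (-0.43, adjusted p = 0.965). Of 15 beta and gamma subunit genes 14 were found, and 1 had a time effect in WT saline (Gnb3, adjusted p = 0.0277, a gene at 1 FPKM or more in only 7 libraries) and 5 in WT cocaine, among them Gng3 (0.00722), Gng7 (0.0110) and Gng12 (0.0326), against the same shares of all genes. No gene of these lists was called for the level of genotype or cocaine averaged over the day.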

How the data were processed

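RNA from ventral striatum punches of 66 libraries in 22 groups was analysed. The authors prepared stranded poly(A) libraries, sequenced single-end reads, aligned them with TopHat and Bowtie2 to mm10 and computed the deposited FPKM with Cufflinks and Cuffnorm, and per the labels CASAVA 1.8.2 was also used. The table has 24138 genes, in which both series of a genotype repeat its ZT3 columns, and the 6 ZT3 libraries were counted a single time. Read numbers are not known, so precision comes from the replicates and no counting interval is given.

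Levels were tested with limma 3.58.1 (R 4.3.3; trend, empirical Bayes) on log2(FPKM + 1), with a pseudocount of 1 that makes changes of low genes smaller than on FPKM. A gene was tested when any library of its comparison reached 1 FPKM, and p-values were Benjamini-Hochberg adjusted over all of them, with a threshold of 0.05. Contrasts at a time point and of the dark (ZT15, ZT19, ZT23) against the light phase used all 66 libraries, the time effect was an F test over the 18 libraries of a series, and levels over the day had time point as a factor. Rhythm was tested with JTK_CYCLE on FPKM, written in R, with an exact null distribution, periods of 20 and 24 h, a correction over 11 pairs of period and phase, a threshold of 0.01 and removal of outlying replicates by Dixon's test at 95%. The library score is the main axis of within-group deviations over 9584 genes of a mean above 5 FPKM. Relative depth came from 1439 genes listed above 0 in 3 to 15 libraries. The tests were tested on simulated data. The members and gene lists were chosen with earlier results of these data known.

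Named were the 8 genes, Drd2, up to 3 genes of a list with the smallest p among those called in a comparison described, and for each of the 8 genes the 3 genes of highest correlation. Values of other RGS genes, of the alpha subunits with the highest medians and of Gnb5 were chosen after their values were seen. Promoters are those of RefSeq for GRCm38.p6, which is mm10. Alternatives were a pseudocount of 0.1, no filter, median-ratio size factors, no trend, a replicate block, the library score as a covariate, and leaving out the set-apart libraries, each replicate number, each library and the library of the highest summed FPKM, and for JTK_CYCLE the settings named in the closing section.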

Additional observations from a re-analysis of the deposited data

How the results depend on the processing

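Over the limma comparisons, 10 calls of a gene were made among the 8 RGS genes, and again 10 with a pseudocount of 0.1, 10 without a trend and 10 with a replicate block, against 9 with size factors, 6 without a filter, 5 with the library score as a covariate, 9 without the set-apart libraries and 11 without the library of the highest summed FPKM. No direction reversed. Leaving out replicates 1, 2 or 3 of all groups gave 1, 2 and 9 calls, and the spread is then estimated from 2 libraries a group.

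The number of the 8 genes called moved as follows. The time effect in WT saline went from 3 to 1 without the set-apart libraries (0 to 4 without a replicate number), and that in WT cocaine from 2 to 0 with the library score (0 to 4). Dark against light in WT cocaine went from 2 to 0 with the library score, size factors or no filter and to 1 without the set-apart libraries (0 to 1), in iMSN-D2RKO saline from 1 to 0 with the library score, without the set-apart libraries or without the library of the highest summed FPKM (0 to 1), and in WT saline from 0 to between 0 and 1 without a replicate number. The genotype difference at single time points after cocaine went from 2 to 1 with the library score (Rgs10 at ZT15, adjusted p = 0.0260, while Rgs8 and Rgs7 at ZT19 were both lost), 0 without a filter and 4 without the library of the highest summed FPKM, which added Rgs10 at ZT15 and Rgs17 at ZT19 (0 to 1), and after saline from 0 to 2 with the library score or without the set-apart libraries. Cocaine in WT mice went from 0 to 1 without the set-apart libraries, which leaves 1 library in 3 groups of ZT19, assumed to vary like the rest. JTK_CYCLE in WT cocaine went from 1 to 2 with size factors, 3 at a threshold of 0.05, and 0 with a 24 h period only, without ZT3 or with equal cosine values kept tied (0 to 1). In iMSN-D2RKO saline it went from 0 to 2 at a threshold of 0.05 and 1 with a 24 h period only or without ZT3 (0 to 1), and in WT saline from 0 to 1 without the set-apart libraries or without ZT3. The causes were not tested. The tie settings, the single-library omissions and the omission of the library of the highest summed FPKM were chosen after seeing the data.

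The replicate block left all 10 calls in number. Replicate numbers did not pair the libraries: deviations of same-numbered libraries had a median r of -0.00269 over 693 pairs, with 205 above 0.1, and those of other numbers 0.00322 over 1386 pairs. The number of reads behind an FPKM is not known, so the limit that depth sets on low levels such as those of Rgs16 was not measured.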
